A study of Mus musculus with 9 samples.

Results

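The genes described here are the mouse ion exchangers, chloride cotransporters and cation pumps, taken as genes with a symbol that begins with Slc4a, Slc8a, Slc9a, Slc12a, Slc24a, Slc26a, Atp1a, Atp1b, Atp2a or Atp2b. The rule uses the symbol and no measured value, although the families themselves were proposed with earlier results of these data known. The genes analysed comprised 55 of the 18193 genes that Mouse430_2 probe sets with a single gene symbol represent, through 120 of 45037 probe sets. The symbol rule also took in 3 genes whose products are not transporters, the scaffold genes Slc9a3r1 and Slc9a3r2 and Slc4a1ap, which encodes kanadaptin. A probe set was kept for testing if at least 3 of the 9 arrays exceeded the 40th percentile of their own array. This left 78 probe sets of 42 of these genes, of 14208 genes tested in all. Each gene was represented by its brightest kept probe set, and 19 of the 42 had several.

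RNA came from punches of 3 regions of the mouse forebrain: the BNST (bed nucleus of the stria terminalis), which belongs to the extended amygdala; the NAc (nucleus accumbens), which is the ventral striatum; and the dStr, or dorsal striatum. All mice were anaesthetised briefly with isoflurane before decapitation, and the punches were taken from semi-frozen coronal slices of 300 µm cut in cold sucrose solution. Strain, genotype, sex and age are not stated in the labels, and no treatment set the regions apart. Each region had 3 arrays, titled as biological replicates, with nothing on whether a punch came from 1 animal or whether punches of different regions came from the same animals. The p-values therefore measure the spread between these samples.

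Ions that leak or are let into a neuron through channels are moved back by transporters. The sodium pump uses ATP to hold the sodium and potassium gradients, and most exchangers and cotransporters spend those gradients to move calcium, chloride, protons or bicarbonate. Calcium that enters in spikes is removed across the plasma membrane by sodium-calcium exchangers (Slc8), potassium-dependent sodium-calcium exchangers (Slc24) and the plasma membrane calcium pumps (Atp2b), and is taken into the endoplasmic reticulum by the SERCA pumps (Atp2a). The cation-chloride cotransporters (Slc12) set the chloride gradient that GABA receptors use, and the Slc4 and Slc9 families regulate pH.

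Values are probe-set intensities on a linear scale. Differences are log2(intensity + 16), with BNST over NAc, BNST over dStr and NAc over dStr, and folds are on the same scale, which understates the change of dim genes. A gene passed if its p, adjusted over all 14208 genes of a comparison in limma, was under 0.05. Array medians ran from 93.9 to 102, low signals had been set to 15, and 2270 to 2698 probe sets an array stood there. The arrays BNST 1 and NAc 1 stood apart within their regions. BNST 1 correlated more closely with NAc 3 (r = 0.965 over all kept genes) than with BNST 2 and 3 (0.934 and 0.948), and the lowest correlation within a region, 0.909, was between NAc 1 and NAc 3. Counts are therefore also given without these 2 arrays. The mean log2 level of 132 ribosomal and respiratory chain genes ran from 9.88 to 10.43 on BNST arrays, from 10.00 to 10.61 on NAc arrays and from 10.33 to 10.44 on dStr arrays, and was lowest on BNST 2 and NAc 1. In bulk tissue, fewer cells of a type and less RNA per cell cannot be told apart.

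Between BNST and dStr, 11 of the 42 genes (26.2%) passed, against a background of 14.3% of all genes tested. Slc8a1, Slc24a3 and Atp1b2 were higher in BNST, where 4.94% of all genes were higher, and Slc8a2, Slc24a2, Slc24a4, Atp2b1, Atp2b2, Slc4a3, Slc12a8 and Slc4a1ap were lower, where 9.33% of all genes were lower. Of these, 7 belong to the 11 genes of calcium extrusion (Slc8, Slc24 and Atp2b, with 2 higher and 5 lower), and 4 to the other 31 (1 higher and 3 lower). The median difference was -0.86 over the calcium extrusion genes and -0.03 over the others, a grouping made with these results known. Over all 42 genes the median was -0.06, as it was over all genes tested, and the median absolute difference was 0.30 against 0.24. The 3 BNST arrays did not overlap the 3 dStr arrays in 20 of the 42 genes (47.6%), against 36.4% of all genes. At a log2 difference of at least 1 as well, 7 of the 42 (16.7%) remained, against 6.1% of all genes. Counted by probe set, 5 of the 78 (6.41%) were higher in BNST than in dStr, against 4.33% of all kept probe sets. Lower were 13 (16.7%), against 9.31%.

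The count depended on single arrays. With BNST 3 left out it was 6 (14.3%, against 7.83% of all genes in the same fit), and with dStr 1 left out it was also 6 (against 8.26%). With BNST 2 or dStr 3 left out it was 7 (16.7%, against 8.4% and 8.24%). Without BNST 1 and NAc 1 it was 18, with 6 higher and 12 lower (42.9%, against 29.2%). Quantile normalisation gave 13, with 5 higher and 8 lower (31%, against 17.1%), and it moved the median of all genes to 0.06.

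**Figure D1:**
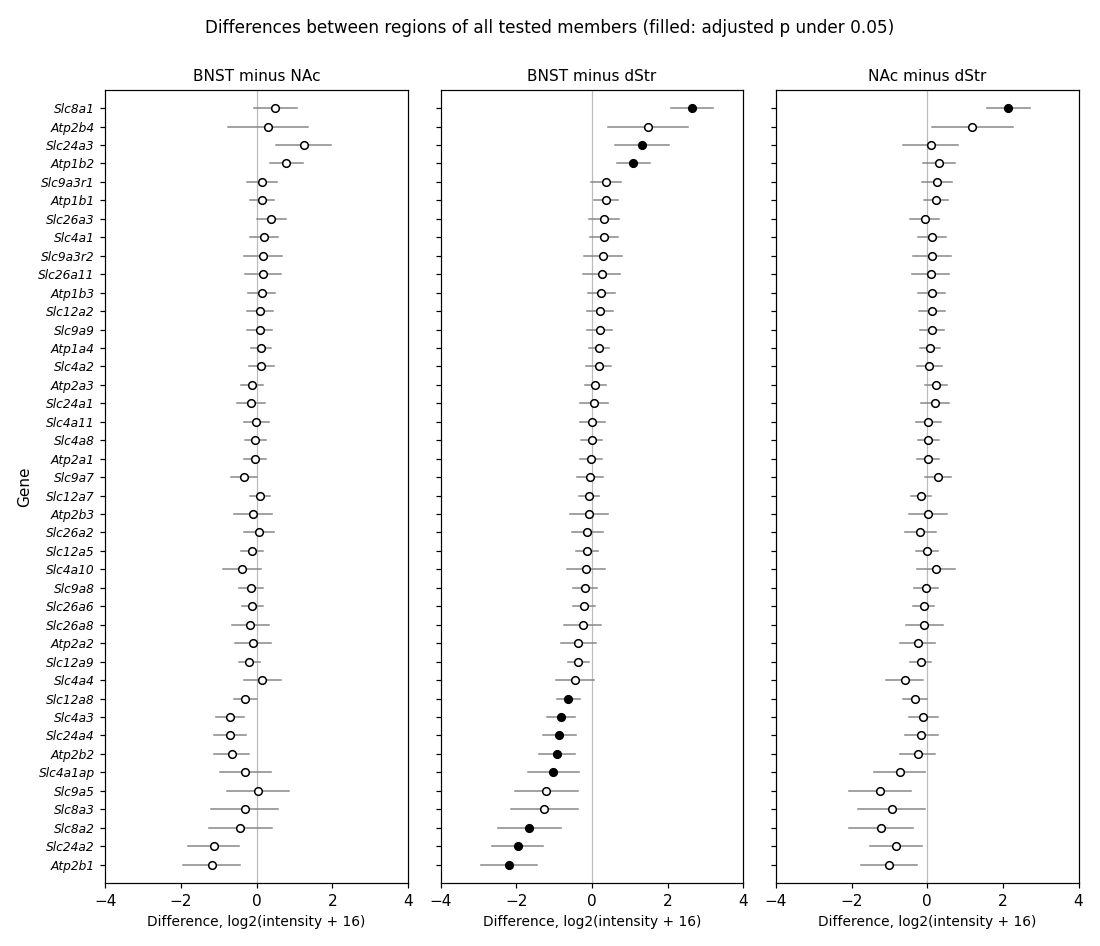
Differences of all 42 tested genes on the log2(intensity + 16) scale, in panels for BNST over NAc, BNST over dStr and NAc over dStr; points are the fitted differences of 3 arrays against 3, bars their 95% intervals, and filled points passed at an adjusted p under 0.05. No gene is filled in the BNST over NAc panel, 11 are filled in the BNST over dStr panel, and Slc8a1 alone is filled in the NAc over dStr panel.

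The sodium-calcium exchangers, which trade sodium entering the cell for calcium leaving it, differed in opposite directions. Slc8a1, the NCX1 exchanger also known from heart muscle, had intensities of 443, 396 and 310 on the BNST arrays, 177, 397 and 259 on the NAc arrays, and 39.7, 58.1 and 45.5 on the dStr arrays. Every BNST and NAc array lay above every dStr array, and the 3 dStr arrays were all below the level of the filter. Slc8a1 was 6.24-fold higher in BNST than in dStr (log2 difference 2.64, SE 0.25, adjusted p = 0.000152) and 4.42-fold higher in NAc than in dStr (2.14, SE 0.25, adjusted p = 0.00224). These were the largest differences among the 42 genes in both comparisons. Between BNST and NAc it differed by 0.50 (95% interval -0.07 to 1.06, adjusted p = 0.479), and the arrays overlapped. Its 2 other kept probe sets were also higher in BNST than in dStr, by 2.12 (adjusted p = 0.000231 over all kept probe sets) and 1.33 (adjusted p = 0.0117). Between NAc and dStr the first of these passed (1.37, adjusted p = 0.0106) and the second had a difference of 0.81 (adjusted p = 0.236). The first read 126 to 147 in BNST, 52.2 to 108 in NAc and 15 to 22.8 in dStr. It was kept through 3 BNST arrays and 1 NAc array, with 0 dStr arrays above the filter. The remaining probe set of Slc8a1 stayed below the filter, at 45.0 to 69.8 on all 9 arrays. Its mean was highest in dStr (63.0, against 53.8 in BNST and 50.6 in NAc), and the arrays of the 3 regions overlapped.

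Slc8a2, the NCX2 exchanger of neurons, had intensities of 474, 161 and 301 in BNST, 225, 577 and 455 in NAc, and 885, 907 and 1009 in dStr. All dStr arrays lay above all others, while BNST and NAc overlapped. It was 3.14-fold lower in BNST than in dStr (-1.65, SE 0.38, adjusted p = 0.0152), and the NAc over dStr difference of -1.22 had an adjusted p of 0.165. The call was lost when BNST 2, BNST 3, dStr 1 or dStr 3 was left out, with adjusted p-values up to 0.0602. Its other kept probe set differed by 0.08 (adjusted p = 0.815), and with the mean of both probe sets the gene's difference was -0.79 (adjusted p = 0.0359). Slc8a3, which encodes NCX3, read 287, 124 and 141 in BNST, 109, 243 and 382 in NAc, and 466, 349 and 504 in dStr. BNST and dStr did not overlap, and the difference of -1.26 (SE 0.40) had an adjusted p of 0.0613, or 0.0185 without BNST 1, 0.0117 without NAc 1 and 0.0337 without NAc 3. For both genes the lowest array of BNST was BNST 2 and the lowest of NAc was NAc 1, the arrays lowest in the ribosomal and respiratory genes. A fit chosen after seeing the data took the mean of those genes as a covariate. In it the Slc8a3 difference between BNST and dStr was -0.87 (adjusted p = 0.0406). The Slc8a2 difference between NAc and dStr was -1.07 (adjusted p = 0.0214). What set these arrays apart was not tested.

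Promoters are shown for Slc8a1 and Slc8a2, and for the exchangers Slc24a3 and Slc24a2 described next, because both families held a gene that was higher and a gene that was lower in BNST than in dStr. Slc24a4, which was also lower but by less than Slc24a2, is not shown. Each is the RefSeq window from 250 bases before to 50 bases after the gene's start on GRCm38.p6, and for Slc24a3 and Slc24a2 it is the first of 2 listed windows. Capitals mark GC boxes (GGGCGG) and CCAAT boxes (CCAAT), searched on both strands, so that CCGCCC and ATTGG are the same motifs read on the other strand.
Slc8a1, chr17:81738338-81738637, minus strand: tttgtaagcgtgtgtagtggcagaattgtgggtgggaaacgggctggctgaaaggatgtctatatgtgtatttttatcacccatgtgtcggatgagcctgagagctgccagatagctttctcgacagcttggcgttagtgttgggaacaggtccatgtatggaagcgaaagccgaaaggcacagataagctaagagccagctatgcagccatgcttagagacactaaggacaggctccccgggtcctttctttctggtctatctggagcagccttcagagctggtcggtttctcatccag
Slc8a2, chr7:16129576-16129875, plus strand: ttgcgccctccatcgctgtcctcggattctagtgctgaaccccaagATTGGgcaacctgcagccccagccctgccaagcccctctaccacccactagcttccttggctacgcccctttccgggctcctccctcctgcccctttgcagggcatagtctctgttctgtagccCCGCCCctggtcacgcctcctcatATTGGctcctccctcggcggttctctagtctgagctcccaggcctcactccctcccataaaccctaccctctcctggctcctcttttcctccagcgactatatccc
Slc24a3, chr2:145167525-145167824, plus strand: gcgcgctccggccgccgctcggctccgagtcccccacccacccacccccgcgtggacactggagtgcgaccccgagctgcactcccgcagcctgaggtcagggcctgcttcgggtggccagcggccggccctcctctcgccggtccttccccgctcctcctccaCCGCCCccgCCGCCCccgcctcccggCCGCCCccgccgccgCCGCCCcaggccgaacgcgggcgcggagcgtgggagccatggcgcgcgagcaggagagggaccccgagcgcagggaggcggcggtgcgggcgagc
Slc24a2, chr4:87230491-87230790, minus strand: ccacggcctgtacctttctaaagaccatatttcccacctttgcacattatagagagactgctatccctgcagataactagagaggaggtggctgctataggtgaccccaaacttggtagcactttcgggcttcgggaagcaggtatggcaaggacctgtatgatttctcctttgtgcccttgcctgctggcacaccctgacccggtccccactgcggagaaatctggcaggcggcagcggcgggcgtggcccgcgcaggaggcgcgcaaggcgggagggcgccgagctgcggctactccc

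The Slc8a1 window held neither motif and had a GC content of 50.7%, near the median of 52.7% over all 32851 windows. The Slc8a2 window held 1 GC box and 2 CCAAT boxes, the Slc24a3 window held 4 GC boxes at a GC content of 80.7%, and the Slc24a2 window held neither. GC boxes were in 35.7% of all windows and CCAAT boxes in 37.4%. Of the 11 genes that passed between BNST and dStr, 10 had windows, 17 in all, and 8 of these held a GC box and 5 a CCAAT box. Among the other motifs searched, TATAAA was in 1 of the 17 windows (13.6% of all), TGACG in 2 (20.8% of all) and GCGNGGGCG, which can overlap a GC box, in 2 (5.55% of all). TGACGTCA, which contains TGACG, was in 0 of the 17 and in 1.79% of all windows. A match is a description of letters and not a site.

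The potassium-dependent sodium-calcium exchangers, which use the potassium gradient in addition to that of sodium, also split. Slc24a3, the NCKX3 exchanger, had intensities of 1647, 1296 and 1758 in BNST, 360, 720 and 1048 in NAc, and 529, 548 and 782 in dStr. No BNST array was as low as any NAc or dStr array, and NAc and dStr overlapped. It was 2.51-fold higher in BNST than in dStr (1.33, SE 0.32, adjusted p = 0.0212), a call lost when BNST 3, dStr 1 or dStr 2 was left out (adjusted p up to 0.0886). The difference of 1.24 between BNST and NAc had an adjusted p of 0.0863.

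Slc24a2, the NCKX2 exchanger of neurons and cone photoreceptors, ran the other way, with 384, 200 and 366 in BNST, 1105, 569 and 522 in NAc, and 1030, 1317 and 1388 in dStr. Each BNST array lay below every NAc and dStr array. It was 3.90-fold lower in BNST than in dStr (-1.96, SE 0.31, adjusted p = 0.00207), and its other kept probe set had a difference of -0.26 (adjusted p = 0.217). With the mean of both the difference was -1.11 (adjusted p = 0.00187). Slc24a4, or NCKX4, which is known from olfactory neurons and tooth enamel, read 127, 88.7 and 119 in BNST, 254, 165 and 164 in NAc, and 233, 182 and 229 in dStr. BNST again lay below both other regions, which overlapped. It was 1.82-fold lower in BNST than in dStr (-0.86, SE 0.20, adjusted p = 0.0149), a call lost when BNST 2, dStr 1 or dStr 3 was left out (adjusted p up to 0.0668). Slc24a1, the exchanger of rod photoreceptors, had 199 to 251 in BNST, 211 to 320 in NAc and 204 to 246 in dStr, and differed by 0.05 between BNST and dStr (95% interval -0.32 to 0.43).

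**Figure D2:**
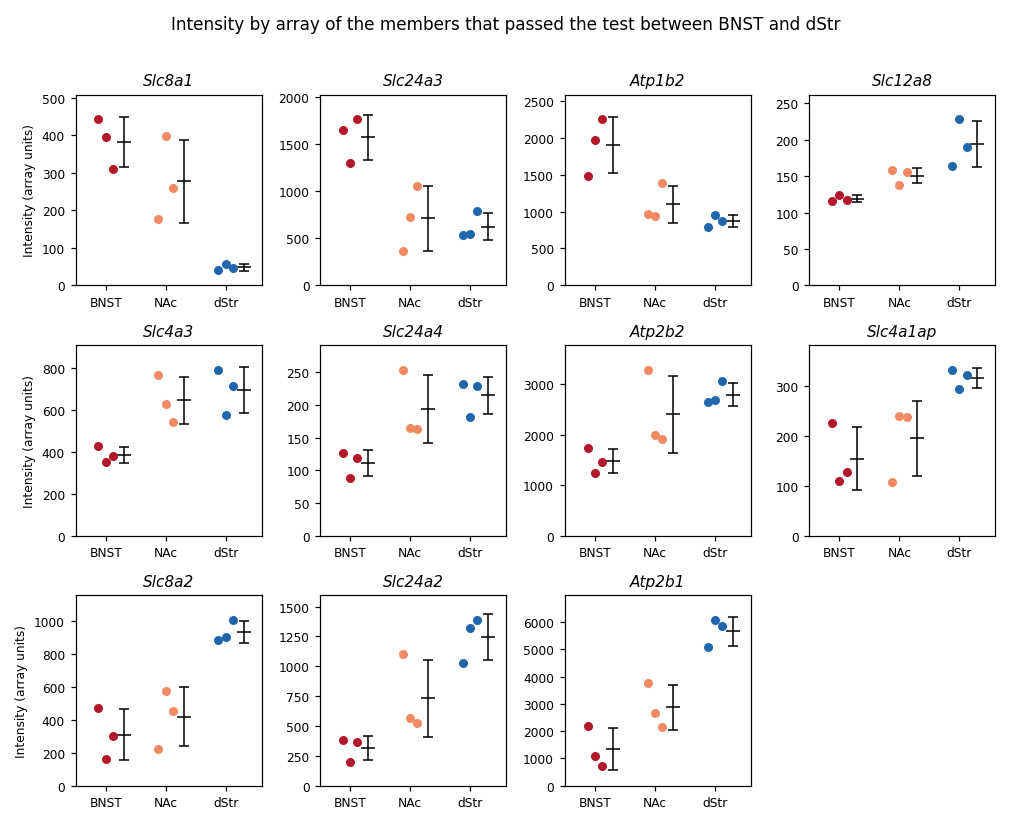
Intensities (linear axis) of the 11 genes that passed between BNST and dStr, 1 panel a gene, with BNST, NAc and dStr from left to right; points are arrays and bars the mean ± SD of 3. Slc8a1, Slc24a3 and Atp1b2 stand highest in BNST, the other 8 stand highest in dStr, and in each the mean of NAc lies between those of BNST and dStr.

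The plasma membrane calcium pumps export calcium at the expense of ATP. Atp2b1, the widely expressed PMCA1, had intensities of 2207, 1104 and 743 in BNST, 3765, 2674 and 2164 in NAc, and 5068, 6074 and 5854 in dStr. The regions followed each other in that order, with an overlap between the highest BNST array and the lowest NAc array. Atp2b1 was 4.58-fold lower in BNST than in dStr (-2.20, SE 0.34, adjusted p = 0.00195), and its NAc over dStr difference of -1.01 had an adjusted p of 0.203. Its 2 other kept probe sets were lower in BNST as well, by -1.82 (adjusted p = 0.00439) and -1.52 (adjusted p = 0.0181).

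Atp2b2, the fast PMCA2 pump of neurons and hair cells, read 1733, 1246 and 1457 in BNST, 3293, 2003 and 1921 in NAc, and 2645, 2687 and 3066 in dStr. BNST lay below both other regions, and NAc and dStr overlapped. It was 1.90-fold lower in BNST than in dStr (-0.92, SE 0.21, adjusted p = 0.0153), a call lost when BNST 2, BNST 3 or dStr 3 was left out (adjusted p up to 0.0682). A second probe set read 315, 227 and 146 in BNST, 308, 440 and 395 in NAc, and 889, 855 and 1010 in dStr. With it BNST was 3.96-fold lower than dStr (-1.99, adjusted p = 0.000679) and NAc 2.37-fold lower than dStr (-1.25, adjusted p = 0.0329). The third gave -1.27 for BNST over dStr (adjusted p = 0.00964) and -1.06 for NAc over dStr (adjusted p = 0.0822). It was dim, at 38.1 to 75.8 in BNST, 48.7 to 83.5 in NAc and 107 to 172 in dStr. The 3 dStr arrays exceeded the filter, but only 1 of BNST and 1 of NAc did. With the mean of the 3, the BNST over dStr difference was -1.39 (adjusted p = 0.000661) and the NAc over dStr difference -0.86 (adjusted p = 0.0351). The 3 probe sets thus had 1 direction but differed in size, and the second separated NAc from dStr where the brightest did not.

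Atp2b3, PMCA3, had 966, 471 and 707 in BNST, 610, 824 and 798 in NAc, and 705, 724 and 748 in dStr. The regions overlapped, with a difference of -0.08 between BNST and dStr (95% interval -0.59 to 0.43). Atp2b4, PMCA4, had 162, 43.5 and 56.8 in BNST, 18.5, 106 and 83.0 in NAc, and 15, 20.5 and 15 in dStr. All BNST arrays lay above all dStr arrays, of which 2 were at the floor, and the difference of 1.49 (SE 0.48) had an adjusted p of 0.0648. It passed with quantile normalisation (adjusted p = 0.0472), with median centring (0.0459), with a pseudocount of 1 (0.049) and without NAc 1 (0.0109). The gene was kept through 1 BNST array and 2 NAc arrays, with 0 dStr arrays above the filter. It was thus tested only through the regions where it was higher.

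**Figure D3:**
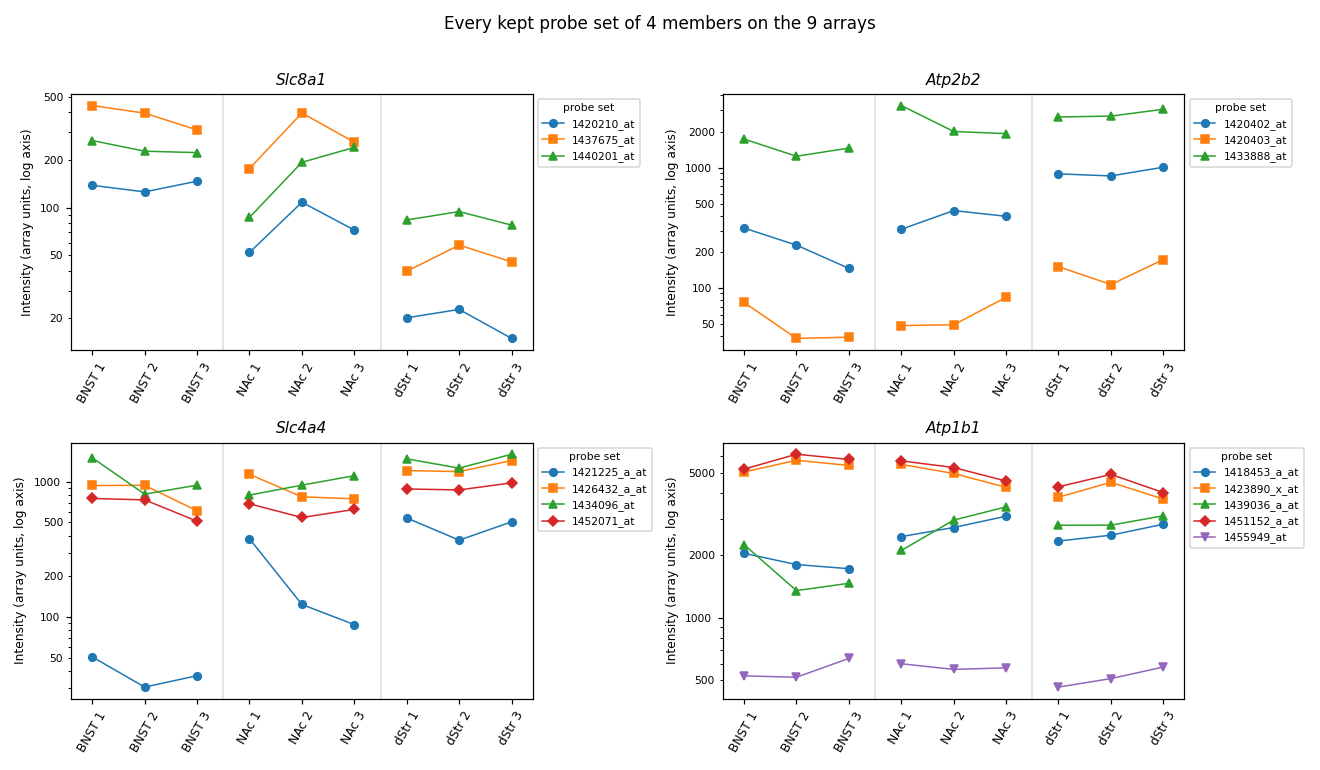
Intensities on a log axis of every kept probe set of Slc8a1, Atp2b2, Slc4a4 and Atp1b1 on the 9 arrays, with BNST, NAc and dStr from left to right; lines join the arrays of 1 probe set within a region. The 3 probe sets of Slc8a1 have their lowest mean in dStr and the 3 of Atp2b2 their highest, while in Slc4a4 1 of 4 probe sets is far lower in BNST than in dStr, and the 5 of Atp1b1 differ in direction.

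None of the SERCA pumps, which refill the calcium store of the endoplasmic reticulum, passed in any of the 3 comparisons. Between BNST and dStr, 14.3% of all genes passed. Atp2a2, the SERCA2 pump of neurons and heart, had 3222, 2989 and 3592 in BNST, 4950, 3177 and 2726 in NAc, and 3620, 4758 and 4254 in dStr. All BNST arrays lay below all dStr arrays, by -0.36 (SE 0.21, adjusted p = 0.296), and its 4 other kept probe sets had differences from -0.22 to 1.32, none of which passed. Atp2a3 read 170, 161 and 145 in BNST, 184, 184 and 158 in NAc, and 163, 140 and 141 in dStr, a BNST over dStr difference of 0.09 (95% interval -0.20 to 0.38). Atp2a1, the SERCA1 pump of fast skeletal muscle, differed by -0.03 (95% interval -0.33 to 0.26).

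Among 15 tested genes for calcium release, store filling, entry and mitochondrial calcium, 0 were higher and 3 lower in BNST than in dStr. The shares of all genes were 4.94% and 9.33%. None of the 15 passed in the other comparisons. Ryr1, a ryanodine receptor that releases stored calcium, read 41.5 to 95.4 in BNST, 109 to 226 in NAc and 320 to 393 in dStr. It was 4.51-fold lower in BNST than in dStr (-2.17, SE 0.28, adjusted p = 0.000707), with no overlap between any of the regions. Ryr3, a second ryanodine receptor, was 2.23-fold lower (-1.16, SE 0.24, adjusted p = 0.01, and 0.0513 without BNST 3), or by -0.67 with the mean of its probe sets. Stim2, a sensor of the store's calcium level, was 2.01-fold lower (-1.01, SE 0.20, adjusted p = 0.00807). The median difference of the 15 genes was -0.08, against -0.06 over all genes.

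The sodium pump exchanges sodium for potassium, and its beta subunits bring the catalytic alpha subunit to the membrane. Atp1b2, the beta subunit of glia, first described as an adhesion molecule, had intensities of 1488, 1964 and 2249 in BNST, 972, 938 and 1387 in NAc, and 786, 957 and 877 in dStr. BNST lay wholly above NAc and dStr, which overlapped. It was 2.13-fold higher in BNST than in dStr (1.09, SE 0.20, adjusted p = 0.00448), and the BNST over NAc difference of 0.78 had an adjusted p of 0.0744. Its dimmer kept probe set had a difference of 0.19 between BNST and dStr (adjusted p = 0.521), and the mean of both gave 0.64 (adjusted p = 0.021).

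Some astrocyte markers were also higher in BNST than in dStr. Of 12 tested, 6 were higher in BNST than in dStr and 0 lower, against 4.94% and 9.33% of all genes. The 12 had a summed intensity of 17308 to 19232 in BNST, 13617 to 15047 in NAc and 12464 to 13115 in dStr, with none of them at the floor. Among the 6, Gfap read 103 to 206 in BNST, 30.8 to 38.2 in NAc and 24.5 to 40.2 in dStr. Only its BNST arrays exceeded the filter, so it was tested through the region where it was high. The part of astrocyte content in the Atp1b2 difference was not tested.

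Atp1b1, the main beta subunit of neurons, read 5189, 6125 and 5781 in BNST, 5688, 5284 and 4549 in NAc, and 4269, 4896 and 4000 in dStr. All BNST arrays lay above all dStr arrays, and the difference of 0.38 (SE 0.14) had an adjusted p of 0.107. Its probe sets disagreed, since another read 2249, 1350 and 1464 in BNST, 2106, 2949 and 3415 in NAc, and 2788, 2788 and 3095 in dStr. That probe set was lower in BNST than in dStr, by -0.81 (SE 0.22, adjusted p = 0.0386 over all kept probe sets). No direction is therefore given for Atp1b1. Atp1b3 had 902, 633 and 714 in BNST, 587, 689 and 763 in NAc, and 561, 671 and 642 in dStr, with overlapping regions and a difference of 0.25 (adjusted p = 0.357), or 0.48 (adjusted p = 0.0312) with quantile normalisation. Atp1a4, the alpha subunit known from sperm, had 229 to 274 in BNST, 225 to 239 in NAc and 211 to 228 in dStr, with a difference of 0.18 (adjusted p = 0.344).

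Of 10 tested regulatory subunits and interacting peptides of the pumps, 3 were higher and 1 lower in BNST than in dStr. Among all genes the shares were 4.94% and 9.33%. The median difference of the 10 was 0.21. Fxyd6, a small pump subunit of brain, read 640, 502 and 435 in BNST, 244, 469 and 599 in NAc, and 128, 158 and 124 in dStr. All BNST and NAc arrays lay above all dStr arrays, and Fxyd6 was 3.53-fold higher in BNST than in dStr (1.82, SE 0.28, adjusted p = 0.00195). It was also 2.81-fold higher in NAc than in dStr (1.49, SE 0.28, adjusted p = 0.0226), a call lost with 5 single arrays left out in turn, NAc 2, NAc 3, dStr 1, dStr 2 and dStr 3 (adjusted p up to 0.113).

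Fxyd1, which encodes phospholemman, was 2.14-fold higher in BNST than in dStr (1.10, SE 0.21, adjusted p = 0.00664). Nkain4, whose product binds the pump's beta subunit, read 896, 931 and 1239 in BNST, 632, 319 and 536 in NAc, and 293, 299 and 280 in dStr, with no overlap between regions. It was 3.35-fold higher in BNST than in dStr (1.74, SE 0.23, adjusted p = 0.000777) and 2.08-fold higher than in NAc (1.06, adjusted p = 0.0414). The second of these calls was lost without BNST 2, BNST 3, NAc 2, dStr 1, dStr 2 or dStr 3 in turn, with adjusted p-values up to 0.197. Nkain2, of the same small family, ran the other way, with 336, 228 and 248 in BNST, 660, 756 and 616 in NAc, and 679, 664 and 630 in dStr. It was 2.38-fold lower in BNST than in dStr (-1.25, SE 0.16, adjusted p = 0.000636) and 2.44-fold lower than in NAc (-1.29, SE 0.16, adjusted p = 0.00322).

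Of the 5 tested cation-chloride cotransporters and relatives, 1 passed between BNST and dStr, where 14.3% of all genes passed. None passed in the other comparisons. Slc12a5, the potassium-chloride cotransporter KCC2 that keeps chloride low in mature neurons, had 4098, 3492 and 4047 in BNST, 4482, 4343 and 3836 in NAc, and 3932, 4563 and 4276 in dStr. The 3 regions overlapped, and the interval of the BNST over dStr difference (-0.13) ran from -0.43 to 0.16. Slc12a2, the chloride-importing cotransporter NKCC1, had 790, 929 and 1005 in BNST, 988, 872 and 710 in NAc, and 722, 873 and 748 in dStr. These overlapped too, with a BNST over dStr difference of 0.21 (95% interval -0.14 to 0.57). Its 2 dimmer probe sets had differences of -0.72 (adjusted p = 0.0803) and -0.57 (adjusted p = 0.307), so that the sign for Slc12a2 depended on the probe set.

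Slc12a7, the cotransporter KCC4, read 126, 123 and 119 in BNST, 121, 104 and 121 in NAc, and 140, 125 and 126 in dStr, a BNST over dStr difference of -0.08 (95% interval -0.34 to 0.19). Slc12a8, a distant member of the family that has been described as a transporter of a nicotinamide nucleotide, read 115, 125 and 118 in BNST, 159, 138 and 156 in NAc, and 164, 228 and 190 in dStr. The 3 regions did not overlap one another, and Slc12a8 was 1.54-fold lower in BNST than in dStr (-0.63, SE 0.14, adjusted p = 0.0133). The call was lost when BNST 3 or dStr 2 was left out (adjusted p up to 0.0567). It rests on 1 probe set, since the other of Slc12a8 was below the filter, at or near the floor (15 to 20.9). Slc12a9, which has no settled transport substrate, had 213, 196 and 197 in BNST, 262, 208 and 231 in NAc, and 280, 261 and 253 in dStr, a difference of -0.36 between BNST and dStr (SE 0.13, adjusted p = 0.0853).

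Of 10 tested genes for kinases and binding partners of these cotransporters, 0 were higher and 2 lower in BNST than in dStr. The shares of all genes were 4.94% and 9.33%. None of the 10 passed in the other comparisons. Neto2, an auxiliary protein of kainate receptors that also binds KCC2, read 235, 150 and 173 in BNST, 372, 380 and 221 in NAc, and 539, 721 and 594 in dStr. All dStr arrays lay above all others, and Neto2 was 3.16-fold lower in BNST than in dStr (-1.66, SE 0.23, adjusted p = 0.001). Klhl2, an adaptor that marks WNK kinases for degradation, read 1063, 574 and 653 in BNST, 1419, 1589 and 1262 in NAc, and 1977, 2231 and 1951 in dStr. No regions overlapped, and Klhl2 was 2.75-fold lower in BNST than in dStr (-1.46, SE 0.21, adjusted p = 0.00132). The median of the 10 genes was -0.08, against -0.06 over all genes.

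**Figure D4:**
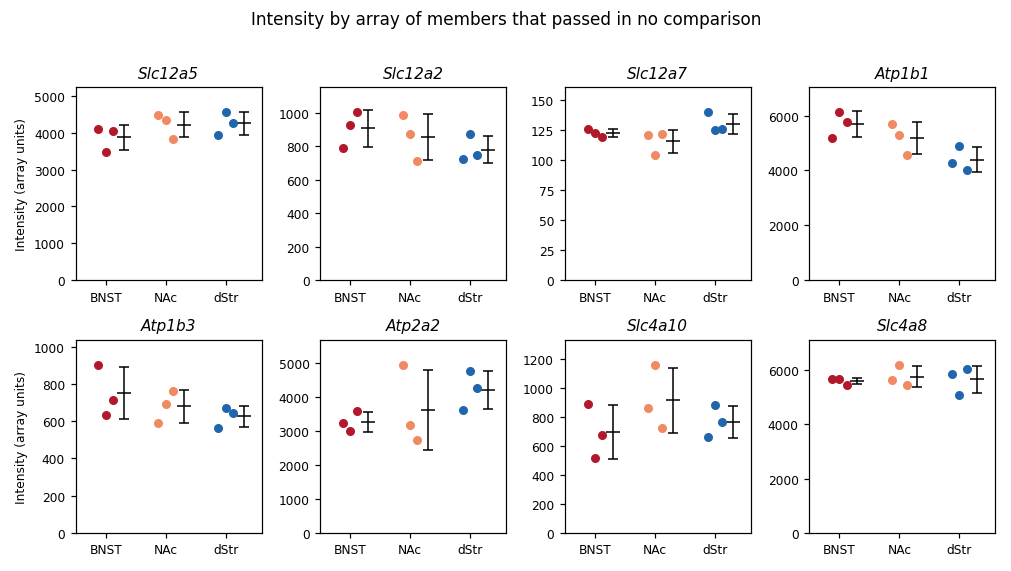
Intensities (linear axis) of Slc12a5, Slc12a2, Slc12a7, Atp1b1, Atp1b3, Atp2a2, Slc4a10 and Slc4a8, none of which passed in any of the 3 comparisons, with BNST, NAc and dStr from left to right; points are arrays and bars the mean ± SD of 3. For Slc12a5 the arrays of all regions lie between 3492 and 4563.

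The Slc4 family exchanges chloride for bicarbonate or carries bicarbonate with sodium. Of its 7 tested transporters, 1 passed between BNST and dStr, where 14.3% of all genes passed. Slc4a3, the anion exchanger AE3 of brain and heart, had intensities of 427, 350 and 379 in BNST, 765, 630 and 542 in NAc, and 792, 575 and 712 in dStr. All BNST arrays lay below all NAc and dStr arrays, which overlapped. It was 1.76-fold lower in BNST than in dStr (-0.81, SE 0.17, adjusted p = 0.00964, and 0.0503 without dStr 1), and the BNST over NAc difference of -0.71 had an adjusted p of 0.0616. Its dimmer kept probe set had a difference of -0.10 between BNST and dStr (adjusted p = 0.723), and with the mean of both the call was lost (-0.46, adjusted p = 0.0508).

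Slc4a4, the sodium-bicarbonate cotransporter NBCe1 that is prominent in astrocytes, read 1502, 810 and 943 in BNST, 796, 943 and 1107 in NAc, and 1474, 1259 and 1595 in dStr. BNST and dStr overlapped through BNST 1, and the difference of -0.45 (SE 0.22) had an adjusted p of 0.215, or 0.0228 without BNST 1. Another of its 4 kept probe sets, singled out after its values were seen, read 51.0, 30.5 and 37.0 in BNST, 379, 124 and 88.2 in NAc, and 540, 370 and 505 in dStr. It was 8.78-fold lower in BNST than in dStr (-3.13, SE 0.41, adjusted p = 0.000996 over all kept probe sets). Its BNST arrays lay below all others, whereas the remaining 2 probe sets differed by -0.63 (adjusted p = 0.0777) and -0.46 (adjusted p = 0.103). With the mean of the 4 probe sets the gene passed (-1.17, adjusted p = 0.00243). That mean includes the singled-out probe set, which had 0 BNST arrays above the filter, and none of the other 3 passed.

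Slc4a10, a sodium-driven bicarbonate transporter of neurons, had 887, 517 and 676 in BNST, 861, 1159 and 722 in NAc, and 659, 879 and 763 in dStr, with a BNST over dStr difference of -0.17 (95% interval -0.67 to 0.33). Slc4a8, a sodium-driven chloride-bicarbonate exchanger of axon terminals, had 5670, 5657 and 5462 in BNST, 5648, 6198 and 5435 in NAc, and 5849, 5087 and 6032 in dStr. The interval of its BNST over dStr difference (-0.01) ran from -0.29 to 0.26. That bright probe set was alone, since the 4 others of Slc4a8 stayed below the filter at 32.7 to 86.1. Slc4a2, Slc4a11 and Slc4a1, known from many epithelia, the cornea and red blood cells, had BNST over dStr differences of 0.17, 0.00 and 0.31, with adjusted p-values of 0.484, 0.99 and 0.246.

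Carbonic anhydrases make the bicarbonate that these carriers move. Of 14 tested, 1 was higher and 2 lower in BNST than in dStr, against 4.94% and 9.33% of all genes. Their median difference was -0.07. Car12, a membrane-bound form, read 78.4, 37.6 and 61.4 in BNST, 496, 274 and 131 in NAc, and 372, 355 and 333 in dStr, with every BNST array below all others. It was 5.04-fold lower in BNST than in dStr (-2.33, SE 0.37, adjusted p = 0.00242) and 3.82-fold lower than in NAc (-1.93, SE 0.37, adjusted p = 0.0273). The second call was lost without BNST 2, BNST 3, NAc 2, dStr 1, dStr 2 or dStr 3 in turn (adjusted p up to 0.116). With the mean of its probe sets the differences were -1.31 from dStr (adjusted p = 0.00946) and -1.03 from NAc (adjusted p = 0.0839). Car11, a catalytically inactive relative, was 2.16-fold lower in BNST than in dStr (-1.11, SE 0.25, adjusted p = 0.0138), a call lost when BNST 2 or dStr 1 was left out (up to 0.0601) and at the threshold without dStr 2. Car3 was 1.40-fold higher (0.48, SE 0.14, adjusted p = 0.043), a call lost without any 1 of BNST 1, BNST 2, BNST 3, NAc 2, NAc 3, dStr 1 and dStr 3 (up to 0.166). It was dim, at 81.9 to 97.6 in BNST, 51.2 to 57.9 in NAc and 52.2 to 72.3 in dStr. Only its BNST arrays exceeded the filter, so it was tested through the region where it was high.

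None of the 4 tested sodium-proton exchangers, which export acid or regulate the pH of organelles, passed, against at most 14.3% of all genes in a comparison. Slc9a5, the plasma membrane exchanger NHE5 of neurons, read 191, 78.6 and 76.0 in BNST, 50.5, 150 and 134 in NAc, and 263, 239 and 296 in dStr. All dStr arrays lay above all others, and the BNST over dStr difference of -1.21 (SE 0.37) had an adjusted p of 0.056, or 0.00922 without BNST 1, 0.0111 without NAc 1 and 0.0461 with a pseudocount of 64. Its other kept probe set had a difference of 0.24 (adjusted p = 0.271). Slc9a7, Slc9a8 and Slc9a9, exchangers of the Golgi and endosomes, had BNST over dStr differences of -0.05, -0.17 and 0.20, with adjusted p-values of 0.866, 0.464 and 0.396. Slc9a2, the exchanger NHE2, was below the filter and was singled out after its values were seen. It had 15, 22.0 and 19.8 in BNST, 43.7, 21.9 and 15 in NAc, and 85.8, 69.1 and 67.6 in dStr, with all dStr arrays above all others. In a fit with no filter its BNST over dStr difference was -1.37 (adjusted p = 0.00685).

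Among 7 tested regulators of sodium-proton exchange, the median BNST over dStr difference was -0.06. In BNST 0 were higher and 1 was lower than in dStr, against 4.94% and 9.33% of all genes. The gene was Tesc, for tescalcin, a calcium-binding protein that regulates sodium-proton exchange. It read 831, 303 and 490 in BNST, 2450, 1861 and 1587 in NAc, and 2806, 3076 and 3089 in dStr, and no regions overlapped. Tesc was 5.83-fold lower in BNST than in dStr (-2.54, SE 0.30, adjusted p = 0.000418) and 3.79-fold lower than in NAc (-1.92, SE 0.30, adjusted p = 0.00982, and 0.0543 without BNST 3).

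The scaffolds Slc9a3r1 and Slc9a3r2 tether transporters to the cytoskeleton and differed by 0.38 (adjusted p = 0.19, and 0.0418 without BNST 1) and 0.29 (adjusted p = 0.428) between BNST and dStr. The 2 other kept probe sets of Slc9a3r1 had differences of -0.63 and -0.66, of opposite sign to the brightest. Slc4a1ap read 226, 110 and 127 in BNST, 108, 239 and 238 in NAc, and 332, 294 and 322 in dStr, with all dStr arrays above all others. It was 2.03-fold lower in BNST than in dStr (-1.02, SE 0.30, adjusted p = 0.0482). This was the least stable of the 11 calls and was lost without BNST 2, BNST 3, NAc 2, dStr 1, dStr 2 or dStr 3 in turn, with adjusted p-values up to 0.172.

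None of the 5 tested members of Slc26, a family of anion exchangers for chloride, sulfate, iodide and bicarbonate, passed in any comparison. The largest share of all genes was 14.3%, between BNST and dStr. Slc26a6, an exchanger of chloride and other anions, read 144, 152 and 155 in BNST, 182, 164 and 147 in NAc, and 191, 166 and 173 in dStr, and differed by -0.21 between BNST and dStr (adjusted p = 0.3). The sulfate transporters Slc26a2 and Slc26a11 and the anion exchangers Slc26a3 and Slc26a8, known from gut and testis, were dim, with intensities from 42.6 to 105 on all 9 arrays. Their BNST over dStr differences ran from -0.25 to 0.32.

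The remaining 13 genes had no kept probe set and were not tested. Their 18 probe sets read 15 to 85.8, with a median of 34.2. Besides Slc9a2 they comprised the kidney cotransporters Slc12a1 and Slc12a3, Slc12a4, which encodes KCC1, Slc4a9, Slc9a3, Slc9a4, Slc26a1, Slc26a10, Slc26a4, Slc26a5, which encodes the hair cell motor prestin, Slc26a7, and Atp1b4.

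Between BNST and NAc, none of the 42 genes passed in limma, against 2.24% of all genes tested, and 7 (16.7%) had an unadjusted p under 0.05, against 12.6% of all genes. The 7 were Slc24a3 and Atp1b2, with positive differences of 1.24 and 0.78, and Atp2b1, Slc24a2, Slc4a3, Slc24a4 and Atp2b2, with differences of -1.18, -1.14, -0.71, -0.71 and -0.66. Their adjusted p-values ran from 0.0616 for Slc4a3 to 0.166 for Atp2b2. The arrays of BNST and NAc did not overlap in 7 of the 42 genes (16.7%), close to the 14.6% of all genes. The median difference was -0.04, against -0.05 over all genes. The count was 3 of 42 (7.14%) without BNST 1, against 4.34% of all genes in the same fit, and 3 without NAc 3, against 3.4%. It was 2 (Slc24a3 and Atp1b2, 4.76%) with quantile normalisation, against 3.06%. Without BNST 1 and NAc 1 it was 11, with 1 higher and 10 lower (26.2%), against 15.5% of all genes. Of those 10, Atp2b4 (-0.74, adjusted p = 0.0185) and Slc9a5 (-0.76, adjusted p = 0.00965) had differences of the opposite sign with all arrays, 0.30 and 0.04, neither of which passed. Counted by probe set, 0 of the 78 were higher and 0 lower, against 0.642% and 1.16% of all kept probe sets.

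Between NAc and dStr, Slc8a1 alone passed, 1 of 42 (2.38%), against 2.05% of all genes. The NAc and dStr arrays did not overlap in 8 of the 42 genes (19%), against 19.1% of all genes, and the median difference was 0.02, against -0.01. Both shares were near those of all genes. The count was 3 (7.14%) without NAc 1, against 2.95% of all genes in the same fit, 2 (4.76%) without BNST 1, against 2.74%, and 5 (11.9%) without both, against 4.98%. Counted by probe set, 2 of the 78 were higher (both of Slc8a1) and 1 lower (of Atp2b2) in NAc than in dStr, against 0.724% and 0.959% of all kept probe sets. In the F test over the 3 regions, 10 of the 42 genes (23.8%) passed, against 10.3% of all genes. With BNST 2 or BNST 3 left out it was 3 (7.14%), against 6.29% and 5.21% of all genes in the same fits, and with dStr 3 left out it was 4 (9.52%), against 5.48%. With dStr 1 or dStr 2 left out it was 5 (11.9%), against 5.43% and 6.24%, and without BNST 1 and NAc 1 it was 16 (38.1%), against 25.9%.

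By mean, NAc stood between the other regions in the genes that passed between BNST and dStr. Among genes that did not pass, it was highest in Slc4a10 and Slc9a7, for example. In 11 of the 11 genes that passed between BNST and dStr, the NAc mean lay between the BNST and dStr means, as it did in 1859 of the 2027 genes (91.7%) that passed among all genes. The comparisons share arrays, so this order is a description of the 3 means. The differences of NAc from dStr in these genes ran from -1.22 for Slc8a2 to 2.14 for Slc8a1.

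Markers of the cells in the punches differed between the regions as well. Of all genes, 4.94% were higher and 9.33% lower in BNST than in dStr. All 10 tested markers of striatal projection neurons were lower in BNST than in dStr, and their summed intensity was 3946 to 9107 in BNST, 16168 to 23458 in NAc and 28088 to 31034 in dStr, with none at the floor. Of 7 tested ependymal markers, 6 were higher in BNST than in dStr, with sums of 1448 to 3365 in BNST, 388 to 451 in NAc and 400 to 461 in dStr. Tmem212 and Enkur were at the floor on all 3 dStr arrays. No dStr array could bring them past the filter, and a lower value in BNST than in dStr was not open to them. Of 9 tested microglial markers, 6 were lower in BNST than in dStr, with sums of 3012 to 3850 in BNST, 3802 to 4659 in NAc and 5214 to 5382 in dStr.

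The other marker lists had fewer members that passed. For them too the shares of all genes were 4.94% higher and 9.33% lower in BNST than in dStr. Of 10 markers of endothelium and pericytes, 0 were higher and 2 lower in BNST than in dStr, and of 10 general neuronal markers 1 was higher and 2 lower. None of 11 tested oligodendrocyte markers passed. Of 5 tested choroid plexus markers 1 was higher, Otx2, which was at the floor on all NAc and dStr arrays. Otx2 was thus tested only through its BNST arrays, where it was high. The part of these cell types in the differences of the transporters and pumps was not tested.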

How the data were processed

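Arrays were grouped by region from their titles and descriptions. The authors deposited linear probe-set intensity values of Affymetrix Mouse430_2 arrays in 1 table. Per the labels' protocols, 10 ng of Stat-60 extracted total RNA was amplified and labelled with biotin. How the probes were summarised and scaled is not given in the sources used here. The deposited scaling was kept.

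Probe sets were named from the platform annotation, and all 55 symbols matched a current gene by Entrez identifier. Values were tested as log2(intensity + 16) with limma 3.58.1 in R 4.3.3, in 1 model over 9 arrays with a mean per region and 6 residual degrees of freedom. Benjamini-Hochberg adjustment ran over all 14208 genes per comparison, and tests were 2-sided. Other kept probe sets of a gene were read from a fit of all 29293. With 9 arrays, their number limits the precision. The procedure was tested on simulated data.

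The families of members, the 13 gene and marker lists and the tests were chosen with earlier results of these data known. By rule, every member that passed and 28 well described members were to be given in full (22 had a kept probe set), with up to 4 passing genes per list and direction. Not every gene of these families is reported here. Promoter windows are from RefSeq.

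Alternatives were quantile normalisation, median centring, a filter at the 60th percentile or none, averaging the probe sets of a gene, testing every kept probe set, a trend and robust prior, a replicate block, pseudocounts of 1 and 64, the arrays of a pair alone, a log2 difference of at least 1, and each array left out. A covariate for ribosomal and respiratory genes, and leaving out BNST 1 and NAc 1, were chosen after seeing the data.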

Additional observations from a re-analysis of the deposited data

How the results depend on the processing

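None of the calls of the fit over all arrays reversed its sign. Of the gene differences that passed only under an alternative, 2 had the opposite sign over all arrays: those of Atp2b4 (-0.74, against 0.30) and Slc9a5 (-0.76, against 0.04) between BNST and NAc without BNST 1 and NAc 1. Probe sets other than the brightest of a gene are not counted in this. A dimmer probe set of Atp1b1 passed between BNST and dStr at -0.81, against 0.38 for the brightest. Over 22 alternatives, the calls of Slc8a1 (in both comparisons), Atp1b2, Atp2b1 and Slc24a2 passed in every one, while Slc4a1ap lost its call in 10 of them. Counts of genes among the 42 moved more than single genes. Between BNST and NAc the count was 0, and it was 2 with quantile normalisation, 2 with the covariate, 11 without BNST 1 and NAc 1, and 0 to 3 with 1 array left out. Between BNST and dStr it was 11, and it was 7 at a log2 difference of at least 1, 18 without BNST 1 and NAc 1, and 6 to 15 with 1 array left out. Between NAc and dStr it was 1, and it was 2 with the mean of probe sets, 3 with the covariate, 5 without BNST 1 and NAc 1, and 1 to 3 with 1 array left out. In the F test it was 10, and it was 16 without BNST 1 and NAc 1 and 3 to 14 with 1 array left out. Leaving out an array leaves fewer residual degrees of freedom, and the cause of the other shifts was not tested.

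The replicate numbers are not shown to pair the samples: deviations of same-numbered arrays from their region means correlated between -0.51 and 0.26, over 0.1 in 2 of 9 pairs, and an array correlated best with its own number in 3 of 18 checks. With a replicate block the counts were 0 for BNST over NAc, 10 for BNST over dStr, 1 for NAc over dStr and 7 in the F test. Between BNST and dStr, all genes split into 702 higher and 1325 lower, into 1265 and 1166 with quantile normalisation and into 916 and 1205 with median centring. The 13 untested members were too dim for the filter, and the number of arrays limits all intervals.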
